A study of Mus musculus with 6 samples.

Results

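Immune suppression and checkpoint mediators were followed in mouse liver through 9 genes chosen by symbol: Cd274, Pdcd1lg2, Vsir, Lgals9, Havcr2, Sirpa, Nos2, Ptgs2 and Il10. Of these, 7 were found among the 20140 genes of the count table, and 5 (Cd274, Vsir, Lgals9, Havcr2 and Sirpa) passed the filter on low counts and were tested. Ptgs2 and Il10 had too few counts for the test and are given as counts. Pdcd1lg2 and Nos2 were not analysed here.

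Bulk RNA was sequenced from 6 whole mouse livers on day 21, 2 per group. The sham group received PBS, the group labelled intra-C carried CT26 cells implanted into the cecum, and the group labelled intra-S received CT26 cells into the spleen. The labels give only these short names, CT26 or PBS, and the day. Reading intra-C as the premetastatic niche (PMN) model and intra-S as the liver metastasis model follows the study's description of its models, in which CT26, a mouse colon carcinoma line, was used in BALB/c mice of 6 to 10 weeks of age with no engineered allele named for these animals. The route and the stage of disease changed together between the models and cannot be told apart. CT26 cells carry the same genome as the host, so RNA of tumor cells in a liver is counted with that of the liver.

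Checkpoint ligands sit on antigen presenting cells, endothelium or tumor cells and restrain T cells through paired receptors, as PD-L1 (Cd274) does through PD-1. Suppressive myeloid cells act in addition by using up arginine, by making nitric oxide or prostaglandin E2, and by secreting interleukin 10. The liver is known as a tolerant organ, in which Kupffer cells and sinusoidal endothelium present antigen together with such inhibitory signals.

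The 6 libraries held 32838321 to 43368309 counts, and levels are given as counts scaled to the size of the library and corrected by TMM (CPM). A count of 0 allows up to 3 counts, which is 0.0679 to 0.0928 CPM. The scatter between the livers of a group exceeded counting noise (chi-square divided by its degrees of freedom: 26.4 in sham, 77.4 in PMN and 363 in metastasis livers). The labelled tissue was checked by 8 hepatocyte markers, which summed to 112000 to 185000 CPM and none of which was at 0 in any liver. The labels do not say whether the livers of a group came from separate animals, so the p-values measure the spread between these 6 livers.

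Vsir, Havcr2 and Cd274 are the members called higher in a tumor group, and their promoter sequence was taken from RefSeq (GRCm38.p6, the build of mm10). Sirpa, Nos2 and Il10 were not matched in the promoter table. The 250 bases before the start used by that table are shown because these genes were called higher together in the metastasis livers, and they are chr10:60346601-60346850 for Vsir, chr11:46454681-46454930 for Havcr2 and chr19:29367188-29367437 for Cd274, all on the plus strand. For Cd274 this start lies inside the RefSeq gene, which begins upstream at base 29362107. Capitals mark matches to any of 8 short motifs on either strand.
Vsir: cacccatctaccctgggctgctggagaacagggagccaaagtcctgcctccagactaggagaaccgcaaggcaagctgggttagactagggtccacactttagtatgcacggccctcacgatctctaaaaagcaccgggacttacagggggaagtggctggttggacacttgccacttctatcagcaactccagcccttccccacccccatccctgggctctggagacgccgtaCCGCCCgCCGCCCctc
Havcr2: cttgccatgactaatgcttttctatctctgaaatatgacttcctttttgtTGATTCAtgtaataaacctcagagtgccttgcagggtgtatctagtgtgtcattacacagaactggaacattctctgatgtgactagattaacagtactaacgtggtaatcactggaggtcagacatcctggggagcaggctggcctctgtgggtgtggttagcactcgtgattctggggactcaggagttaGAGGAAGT
Cd274: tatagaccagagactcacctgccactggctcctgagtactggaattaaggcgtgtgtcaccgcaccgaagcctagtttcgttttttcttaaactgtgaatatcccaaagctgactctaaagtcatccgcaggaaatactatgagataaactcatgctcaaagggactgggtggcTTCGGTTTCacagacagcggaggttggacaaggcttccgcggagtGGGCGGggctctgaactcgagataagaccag
The motifs searched were NF-kB (GGGNNTTTC), STAT (TTCNNNGAA), ISRE (GAAANNGAA), PU.1 (GAGGAAGT), CRE (TGACGTCA), and 3 shorter ones. The first of these is AP-1, spelled TGANTCA, bound by Fos and Jun proteins. The TATA box, which places the start of transcription, was searched as TATAAA. The GC box, a common element of promoters without a TATA box, was searched as GGGCGG. No motif was matched in all 3 windows. The capitals in Vsir are 2 GC boxes, which begin 16 and 9 bases before the start, and the capitals in Cd274 are 1 ISRE match that begins 76 bases and 1 GC box that begins 31 bases before it. ISRE letters were found in 7.16% and a GC box in 32.9% of the 27025 promoters of the table. The ISRE and NF-kB letters are each 1 base shorter than a longer form ending in A or C, and these longer forms had 0 matches in the 3 windows and occurred in 3.04% and 1.40% of all promoters. Havcr2 held 1 AP-1 match, 200 bases before the start, and 1 PU.1 match that ends at the start, and these letters occurred in 6.87% and 2.44% of all promoters. The NF-kB, STAT, CRE and TATA letters were absent from these 3 windows and were present in 3.79%, 7.18%, 1.62% and 13.0% of all promoters. A match is a description of letters and not of a bound site. The windows also differed in base composition, with 60.4% G or C in Vsir, 50.4% in Cd274 and 44.8% in Havcr2, and with 9, 11 and 2 CpG dinucleotides.

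In PMN livers, 2 of the 5 tested members were called higher than in sham livers and 0 lower, Vsir and Havcr2. Havcr2 passed the filter on low counts only through the tumor livers, where it is high, and its calls in both comparisons carry that limit. The test was edgeR's quasi-likelihood test with Benjamini-Hochberg adjustment over 16370 genes, with calls at an adjusted p below 0.05. Over all tested genes, 4.92% were called higher and 2.38% lower. In metastasis livers, 3 of the 5 were called higher and 0 lower, Vsir, Havcr2 and Cd274, where 6.78% of all genes were called higher and 3.95% lower. Between metastasis and PMN livers 0 members were called, as were 0 of all genes, with 1 member (Cd274) and 13.4% of all genes at an unadjusted p below 0.05, and DESeq2 called 0 members there too. With a metastasis liver left out, genes were called between the tumor groups, 24 higher and 31 lower without metastasis liver 1 and 1312 and 1572 without metastasis liver 2. The median log2 fold change of the 5 members was 0.76 in PMN and 1.99 in metastasis livers against sham, and 0.12 between the tumor groups, against 0.01, 0.04 and 0.03 for all tested genes. Both comparisons with sham share the same 2 sham livers.

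**Figure D1:**
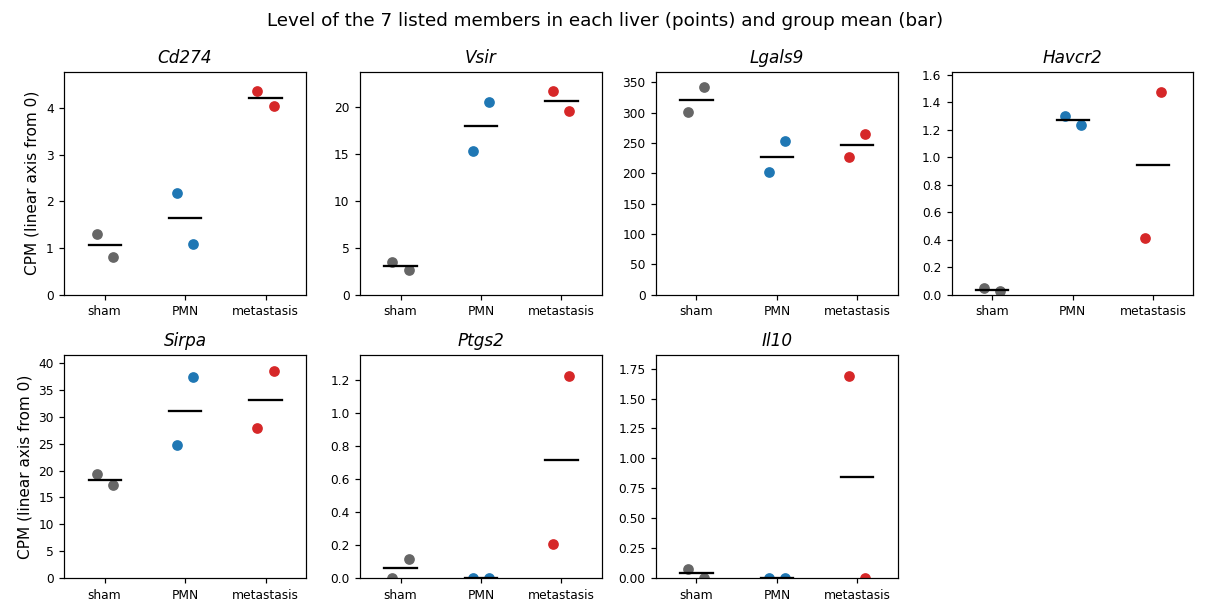
Level of each of the 7 listed members in CPM (vertical axis, linear from 0) in the 2 livers of the sham, PMN and metastasis groups; points are livers and bars are group means. Vsir and Havcr2 are higher in all 4 tumor livers than in both sham livers, as 34.4% of all genes are in PMN and 30.4% in metastasis livers. Cd274 is highest in the 2 metastasis livers, and Il10 and Ptgs2 are highest in 1 metastasis liver each.

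Among the checkpoint ligands, Vsir, which encodes VISTA, an inhibitory B7-family protein that is abundant on myeloid cells, gave the smallest adjusted p of the members. Sham livers 1 and 2 had 3.42 and 2.67 CPM, PMN livers 15.4 and 20.5 CPM, and metastasis livers 21.7 and 19.5 CPM. All 4 tumor livers lay above both sham livers, as for 34.4% of all genes in PMN and 30.4% in metastasis livers. The tumor groups overlapped. Vsir rose 5.88-fold in PMN livers (log2 2.56, SE 0.26, adjusted p = 0.00738 by edgeR) and 6.76-fold in metastasis livers (log2 2.76, SE 0.26, adjusted p = 0.00579 by edgeR). Between metastasis and PMN livers the fold was 1.15, with a 95% interval of 0.768 to 1.72 and an adjusted p of 0.73 by edgeR. The gene spans chr10:60346851-60372684 in GENCODE vM21, and in that annotation its exons share no base with those of Cdh23, which lies across it on the other strand. The RefSeq gene reaches further, to base 60430294, and the annotation used for the counting is not known. Without either sham liver the call was lost in both comparisons (adjusted p of 0.12 without sham liver 1 and 0.119 without sham liver 2 for PMN, 0.0871 and 0.0893 for metastasis), and without PMN liver 2 it was lost for PMN (0.0597), while the log2 fold change stayed between 2.36 and 2.95.

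Cd274, which encodes PD-L1, the ligand of PD-1, followed another order. It stood at 1.31 and 0.815 CPM in sham, at 2.19 and 1.08 CPM in PMN and at 4.37 and 4.05 CPM in metastasis livers. The PMN livers overlapped the sham livers, and both metastasis livers stood above all the others, as they did above both PMN livers for 21.8% of all genes. Cd274 rose 3.97-fold in metastasis livers (log2 1.99, SE 0.48, adjusted p = 0.0484 by edgeR). In PMN livers the fold was 1.55 with a 95% interval of 0.705 to 3.40 (adjusted p = 0.437 by edgeR), which does not show that the gene was unchanged, and the log2 fold change of 0.63 became 0.03 without PMN liver 1. The direct comparison of metastasis with PMN livers gave a fold of 2.56, with a 95% interval of 1.18 to 5.57 and an adjusted p of 0.332 by edgeR (unadjusted 0.0247). The log2 fold change there, 1.36, was 1.96 without PMN liver 1 and 0.93 without PMN liver 2. The call against sham lay close to the limit and was lost without sham liver 1 (adjusted p = 0.187), sham liver 2 (0.287), PMN liver 1 (0.0728), PMN liver 2 (0.0699) or metastasis liver 1 (0.0515), and with library size in place of TMM (0.0600). In GENCODE vM21, 511 of the 3622 exonic bases of Cd274 lie across from the exons of an antisense gene. Strand was not stated for the counting, so reads of these genes cannot be told apart there.

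Lgals9, which encodes galectin-9, a ligand of TIM-3, was the most abundant member. Sham livers had 300.7 and 342.9 CPM, PMN livers 202.1 and 252.7 CPM, and metastasis livers 227.4 and 265.7 CPM. All 4 tumor livers lay below both sham livers, but the difference was not called in PMN (fold 0.707, 95% interval 0.489 to 1.02, adjusted p = 0.205 by edgeR) or metastasis livers (fold 0.766, 95% interval 0.531 to 1.11, adjusted p = 0.293 by edgeR). Livers of the groups did not overlap in this direction for 34% of all genes in PMN and 30% in metastasis livers. The gene lies on the minus strand of chromosome 11, beside Nos2.

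Of the receptors, Havcr2 encodes TIM-3, an inhibitory receptor of T cells and myeloid cells. Sham livers gave 2 and 1 counts, PMN livers 51 and 40, and metastasis livers 14 and 60, or in the same order 0.0493, 0.0226, 1.30, 1.24, 0.408 and 1.47 CPM. The gene was almost silent in sham livers, and the metastasis livers differed 3.61-fold from each other. With 3 counts in the sham group, the ratio was 35.9 for PMN (95% counting interval 11.9 to 177) and 27.9 for metastasis livers (9.17 to 138), where the interval covers counting error only. The fitted log2 fold change in metastasis livers, 4.61, became 5.26 without metastasis liver 1, 3.41 without metastasis liver 2 and 5.20 without sham liver 1. That in PMN livers, 5.03, became 5.62 without sham liver 1. Havcr2 was called higher in PMN (adjusted p = 0.0341 by edgeR) and metastasis livers (0.0336). It passed the filter on low counts only through the tumor livers, where it is high, so these calls are no separate support for a rise. The PMN call was lost without either sham liver (0.213 and 0.261) or either PMN liver (0.159 and 0.143). The metastasis call was lost without either sham liver (0.184 and 0.224) or either PMN liver (0.0839 and 0.0834).

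Sirpa encodes SIRP alpha, the myeloid receptor of the antiphagocytic signal CD47. Levels were 19.3 and 17.3 CPM in sham, 24.7 and 37.4 CPM in PMN and 27.8 and 38.5 CPM in metastasis livers. Every tumor liver lay above both sham livers, as for 34.4% of all genes in PMN and 30.4% in metastasis livers. The difference was not called in PMN (fold 1.70, 95% interval 1.07 to 2.68, adjusted p = 0.14 by edgeR) or in metastasis livers (fold 1.81, 95% interval 1.15 to 2.86, adjusted p = 0.0956 by edgeR). Where it passed with a metastasis liver left out, the calls over all genes rose as well, so this says nothing particular to Sirpa. Its log2 fold change in metastasis livers, 0.86, became 1.08 without metastasis liver 1 and 0.60 without metastasis liver 2. Sirpa has close paralogs in the Sirpb1 genes, so its count is less certain than that of a gene without one.

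**Figure D2:**
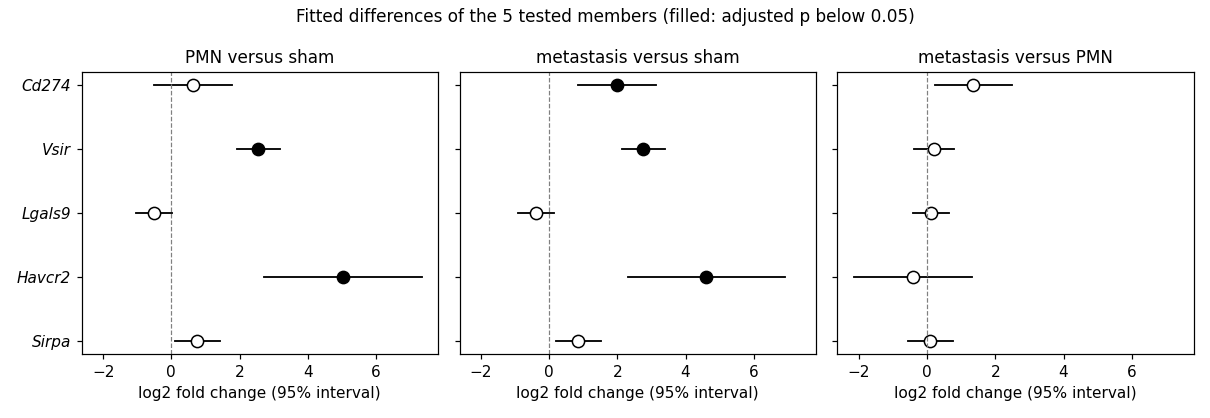
Log2 fold change (horizontal axis) and 95% interval of the 5 tested members in PMN versus sham, metastasis versus sham and metastasis versus PMN livers; filled points have an adjusted p below 0.05 by edgeR. The intervals of Vsir lie near 2 to 3 on the log2 scale against sham, those of Havcr2 are the widest, and no member is filled between the tumor groups.

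Among the enzymes, Ptgs2 encodes cyclooxygenase 2, the inducible enzyme of prostaglandin synthesis. Sham livers gave 0 and 5 counts, PMN livers 0 and 0, and metastasis livers 7 and 50, so that metastasis liver 2 held most of the counts at 1.23 CPM, against 0.204 CPM in metastasis liver 1 and 0.113 CPM in sham liver 2. Because 1 liver holds most of the signal, no ratio of the groups is given. In PMN livers Ptgs2 was not detectable above 0.0764 and 0.0928 CPM. Metastasis liver 2 was also the only liver with counts of Krt20, a colon epithelial keratin (6.13 CPM), and had 64.7 CPM of Lgals1 against 2.44 to 7.03 CPM in the others. Lgr5, the only colon epithelial marker with enough counts for the test, was not highest there, with 3.09 CPM against 0.146 CPM in metastasis liver 1 and 1.74 to 4.33 CPM in the sham and PMN livers. Their part in the Ptgs2 counts was not tested.

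Il10 encodes interleukin 10, the cytokine that restrains macrophages and T cells. Sham livers gave 3 and 0 counts, PMN livers 0 and 0, and metastasis livers 58 and 0. All 58 counts of the metastasis group came from metastasis liver 1 (1.69 CPM, 95% counting interval 1.28 to 2.19), while metastasis liver 2 had none at a limit of 0.0736 CPM. Because 1 liver carries the signal, no level of the group is given.

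Per length of transcript (TPM), the members keep the same order in both sham livers down to Cd274. In the sham livers Lgals9 stood at 426.8 and 485.4 TPM, Sirpa at 6.90 and 6.16 TPM, Vsir at 1.03 and 0.803 TPM and Cd274 at 0.732 and 0.456 TPM. Havcr2 was lower at 0.0407 and 0.0187 TPM. In the metastasis livers Sirpa (7.80 and 11.6 TPM) lay above Vsir (5.13 and 4.96 TPM). Lgals9 remained the most abundant in every liver, with 243.5 TPM at its lowest.

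The other genes of these pathways were read from lists made for this description with earlier results of these data known, so their counts are descriptions. Without PMN liver 1 or PMN liver 2, Cd300lf alone of the genes on these lists was called in PMN livers (adjusted p = 0.0498 and 0.0443 by edgeR), so the PMN counts below rest on both. Among the 7 lists plotted by share, myeloid inhibitory receptors with their phosphatases held the largest share, with 7 of 12 tested genes called higher in PMN and 7 in metastasis livers and 0 lower in either. Cd300lf, an inhibitory receptor of myeloid cells, had 0.542 and 0.543 CPM in sham, 13.9 and 13.2 CPM in PMN and 19.9 and 12.4 CPM in metastasis livers. It rose 24.9-fold and 29.6-fold (adjusted p = 0.00543 and 0.00443 by edgeR). Pirb, the paired inhibitory receptor of MHC class I, rose 5.32-fold and 4.84-fold, Siglece, a sialic acid receptor, 5.87-fold and 4.67-fold, Lilrb4a 4.73-fold and 5.39-fold, and Cd300a 4.20-fold and 4.60-fold. The median log2 fold change over the list was 2.05 and 2.21.

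Of 30 tested checkpoint partners, 8 were called higher in PMN and 7 in metastasis livers, and 0 lower in either. Cd80, which binds CD28 and CTLA-4 and also PD-L1, had 0.197 and 0.136 CPM in sham, 1.86 and 0.928 CPM in PMN and 1.08 and 1.37 CPM in metastasis livers, a rise of 8.28-fold and 7.27-fold (5.51-fold in PMN livers without PMN liver 1). Cd86, its relative, rose 5.65-fold and 5.06-fold. Selplg, a selectin ligand that also binds VISTA, rose 5.05-fold and 6.16-fold. Lgals3, a galectin that binds LAG-3, rose 5.46-fold in PMN livers and 12.4-fold in metastasis livers (adjusted p = 0.00702 and 0.00443 by edgeR). Fgl1, another LAG-3 ligand made by hepatocytes, had 245.0 and 531.9 CPM in sham, 3710 and 3310 CPM in PMN and 2493 and 4471 CPM in metastasis livers, and rose 9.04-fold and 8.96-fold, or 14.3-fold and 14.2-fold without sham liver 2. Fgl2 rose 3.74-fold and 3.19-fold. Cd47, the ligand of SIRP alpha, lay between 39.8 and 57.1 CPM in every liver and was not called (adjusted p = 0.575 and 0.317 by edgeR). Pdcd1, the PD-1 receptor, had no count in the sham livers and 0.0619 to 0.554 CPM in the tumor livers, and was not called (adjusted p = 0.125 and 0.0543 by edgeR).

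**Figure D3:**
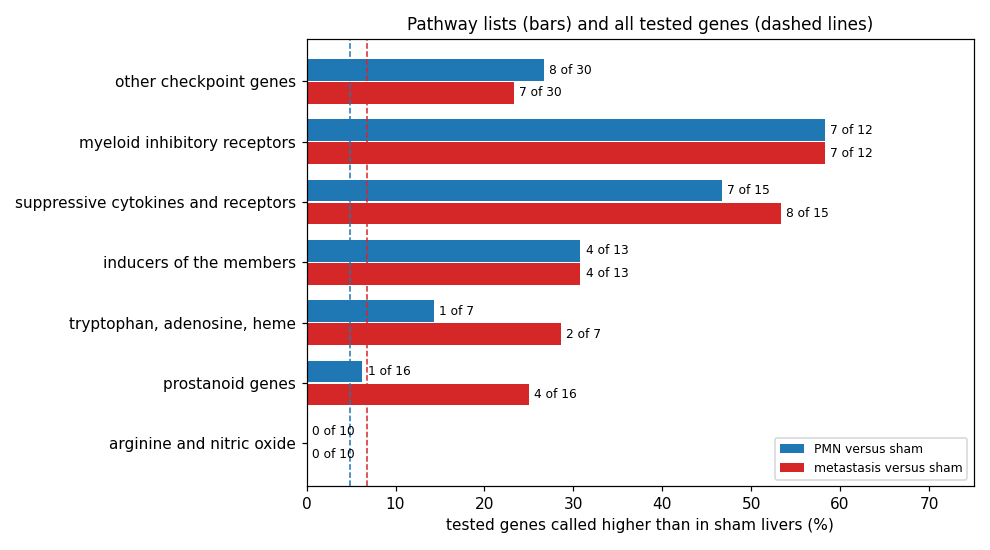
Share of tested genes called higher than in sham livers (horizontal axis, %) for 7 lists, in PMN (blue) and metastasis livers (red); dashed lines mark the share over all tested genes, 4.92% and 6.78%. Myeloid inhibitory receptors and suppressive cytokine genes show the longest bars, and the arginine and nitric oxide list has none.

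Of 15 tested genes of suppressive cytokines, decoys and receptors, 7 were called higher in PMN and 8 in metastasis livers, and 0 lower. Il10ra, the ligand binding chain of the interleukin 10 receptor, had 1.60 and 1.90 CPM in sham, 5.80 and 6.25 CPM in PMN and 5.98 and 6.08 CPM in metastasis livers, and rose 3.44-fold in both (adjusted p = 0.0200 and 0.0156 by edgeR). Tgfb1 rose 2.39-fold and 3.15-fold, with 3.72 and 3.51 CPM in sham against 7.13 to 12.3 CPM in the tumor livers. Il18bp, which neutralizes interleukin 18, rose 3.98-fold and 3.66-fold. Il1r2, the decoy receptor of interleukin 1, rose 13.0-fold and 18.7-fold, or 22.1-fold and 31.9-fold without sham liver 1. Stat3 rose 3.52-fold in PMN livers and 2.04-fold in metastasis livers, and Socs3, its feedback inhibitor, 16.6-fold and 11.2-fold, the latter 17.1-fold without metastasis liver 1 and 5.42-fold without metastasis liver 2.

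The arginine and nitric oxide list had 0 of 10 genes called higher in either comparison and 1 lower, Ddah1, which degrades inhibitors of nitric oxide synthase. Ddah1 fell from 70.02 and 78.8 CPM in sham to 19.3 and 25.0 CPM in PMN and 15.0 and 29.7 CPM in metastasis livers. Slc7a2, an arginine transporter, was not called (adjusted p = 0.352 and 0.503 by edgeR).

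Among 16 tested prostanoid genes, 1 was called higher and 1 lower in PMN livers, and 4 higher and 1 lower in metastasis livers. Ptgs1, the constitutive cyclooxygenase, rose 3.97-fold and 3.81-fold, the latter 2.17-fold without metastasis liver 2. Ptges, which makes prostaglandin E2, had no count in sham, 0.102 and 0.0309 CPM in PMN and 9.59 and 2.26 CPM in metastasis livers. In metastasis livers it was at least 80.2-fold higher than the limit of 3 counts per library in sham (adjusted p = 0.0173 by edgeR), or at least 30.5-fold with metastasis liver 2 alone. Ptges passed the filter on low counts only through the metastasis livers, where it is high, so its call is no separate support for a rise. Its highest value was in metastasis liver 1 while that of Ptgs2 was in metastasis liver 2. Slco2a1, a prostaglandin transporter, rose 2.70-fold in metastasis livers. Ptgds, prostaglandin D2 synthase, fell to 0.170 and 0.0592 of its sham level, the latter 0.0288 without metastasis liver 1 and 0.092 without metastasis liver 2. Ptger4, a prostaglandin E2 receptor (adjusted p = 0.388 and 0.282), and Hpgd, which degrades prostaglandins (0.476 and 0.51), were not called by edgeR.

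Of the 7 tested enzymes and receptors of tryptophan, adenosine and heme, Entpd1 (CD39, which converts extracellular ATP towards adenosine) rose 7.48-fold in PMN and 4.54-fold in metastasis livers. Hmox1 (heme oxygenase 1) rose 10.3-fold in metastasis livers (4.63-fold without metastasis liver 1 and 16-fold without metastasis liver 2), with 188.8 CPM in metastasis liver 1 and 54.6 CPM in metastasis liver 2 against 11.9 and 11.7 CPM in sham, and missed the limit in PMN livers (adjusted p = 0.0503 by edgeR).

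Among 13 tested inducers of the members, 4 were called higher in each comparison and 0 lower. Il1b, an inflammatory cytokine, rose 13.8-fold and 11.1-fold (25.4-fold and 20.4-fold without sham liver 2, and 7.49-fold in PMN livers without PMN liver 1), Irf8, a myeloid transcription factor, 3.06-fold and 3.95-fold, and Tlr4, the endotoxin receptor, 3.68-fold and 3.24-fold. Myd88, a signal adaptor, was called in PMN livers (1.94-fold) and Ifngr1, a chain of the interferon gamma receptor, in metastasis livers (3.15-fold). Irf1, an interferon response factor, was not called and had 19.8 and 23.7 CPM in sham against 11.8 to 18.5 CPM in the tumor livers (adjusted p = 0.177 and 0.262 by edgeR). Il6 had 0 to 0.0493 CPM in sham and 0.0619 to 1.40 CPM in the tumor livers and was not called (adjusted p = 0.288 and 0.0601 by edgeR). Ifng was not analysed here.

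**Figure D4:**
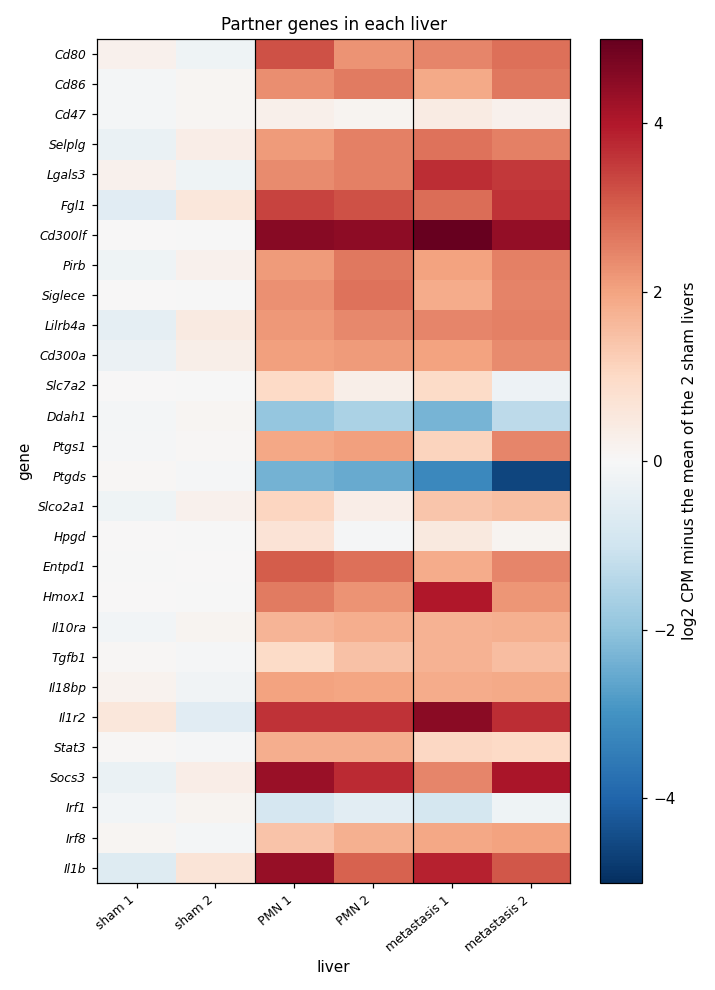
Log2 CPM of 28 partner genes (rows) in each of the 6 livers (columns), minus the mean of the 2 sham livers; red is higher and blue lower. Cd300lf and Il1r2 are among the reddest in all tumor livers, Ddah1 and Ptgds are blue, and Cd47 stays near the sham level.

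The study named 7 genes of suppressive neutrophils for its single cell data, beside Nos2. Those were neutrophils of another mouse strain bearing another tumor line on an earlier day, while the values here are of whole liver. Of 6 tested here 3 were called higher in PMN and 4 in metastasis livers, which is not independent of how those genes were chosen. Cd14 rose 18.5-fold and 20.2-fold, Wfdc17 8.76-fold and 7.98-fold, and Stfa2, at 0 in sham, was at least 18.7-fold and 35.8-fold higher than the limit of 3 counts per library (17.6-fold with metastasis liver 2 alone). Stfa2 passed the filter on low counts only through the tumor livers, where it is high. Asprv1 was called in metastasis livers, with 7.84 and 1.57 CPM there, 0.222 and 0.0453 CPM in sham and 0.789 and 1.95 CPM in PMN livers, and its fold ranged from 11.7 without metastasis liver 1 to 97.1 without sham liver 1. Without metastasis liver 1 the fold of Cd14 was 12.8, and without metastasis liver 2 that of Wfdc17 was 4.74.

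Markers of several cell types moved with the groups. All 11 neutrophil markers were called higher in both comparisons, and they summed to 3.82 and 4.93 CPM in sham, 254 and 537 CPM in PMN and 918 and 389 CPM in metastasis livers. Camp, Mpo and Elane, at 0 in sham livers, are among those that passed the filter on low counts only through the tumor livers. Of 10 monocyte and macrophage markers 6 and 7 were called higher (57.3 and 63.9 CPM summed in sham, 276 to 410 CPM in the tumor livers), of 8 Kupffer cell markers 7 and 6 (195 and 197 CPM in sham, 575 to 1080 CPM), and of 7 endothelial markers 4 and 4 (85.2 and 95.0 CPM in sham, 209 to 345 CPM). T and NK cell markers gave 0 of 9 calls, with sums of 3.82 and 4.61 CPM in sham, 4.68 and 5.94 CPM in PMN and 8.60 and 13.1 CPM in metastasis livers. Dendritic cell and B cell markers gave 0 of 8 and 0 of 4 calls. The dendritic cell markers summed to 6.88 to 15.9 CPM over all livers, and the B cell markers to 2.96 and 3.15 CPM in sham, 0.967 and 1.36 CPM in PMN and 1.63 and 3.33 CPM in metastasis livers. Of 7 stellate cell and fibroblast markers 0 were called in PMN and 2, Col1a1 and Dcn, in metastasis livers, with sums of 261 and 237 CPM in sham, 278 and 267 CPM in PMN and 398 and 372 CPM in metastasis livers. Of 8 hepatocyte markers 0 were called in PMN and 1, Cyp2e1, was lower in metastasis livers (fold 0.314), and of the regulatory T cell markers 0 of 1 tested was called. Of 5 cholangiocyte markers 0 and 1 (Sox9) were called, with the highest sum, 185 CPM, in metastasis liver 2, of which 180.1 CPM were Spp1. Krt19, Krt7 and Epcam had at most 0.860 CPM in any liver. In bulk liver, fewer or more cells of a type and less or more RNA per cell cannot be told apart, and the part of these cells in the members' levels was not tested.

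For each member called against sham, the genes with the most similar profile over the 6 livers were found by the root mean square difference of their centred log2 CPM. For Vsir these were Itgb2 (0.0838), Adam23 (0.134) and Igsf6 (0.158), and 19 of 12678 genes lay within 0.25 of it. Cd274 was nearest to Tmem88 (0.207), Ezh2 (0.262) and Camk2d (0.268). Havcr2 was nearest to Slc37a1 (0.308), Mefv (0.354) and Socs3 (0.375).

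**Figure D5:**
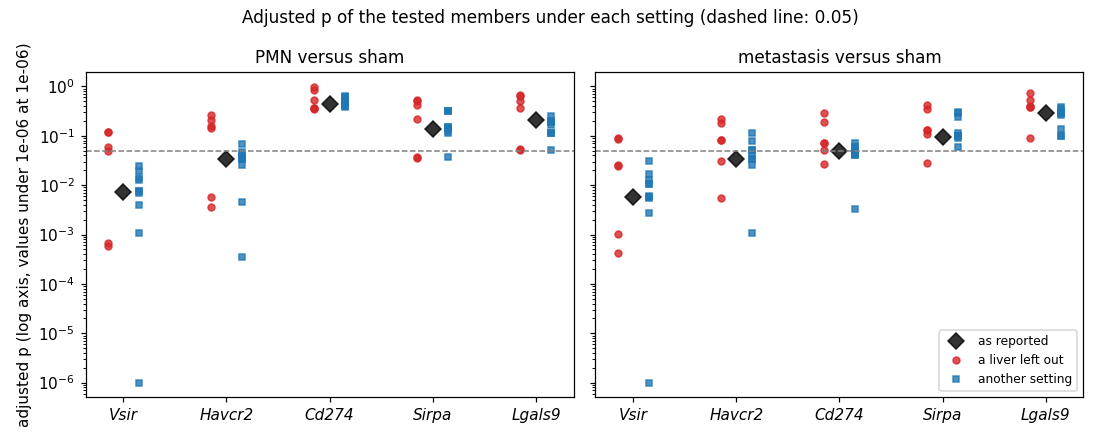
Adjusted p (vertical axis, log scale) of the 5 tested members against sham as reported (diamonds), with each liver left out (circles) and under 10 other settings (squares); the dashed line is 0.05. For Vsir the squares lie below the line and some circles above it, and the points of Cd274 lie on both sides of the line in metastasis livers.

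Without sham liver 1 or sham liver 2, 0 genes of the whole table were called in either comparison with sham. In these fits the remaining sham liver is assumed to vary like the other groups, and since all calls were lost at once, the loss says nothing particular to a member. In PMN livers, 62 genes were called higher and 3 lower without PMN liver 1, and 57 and 4 without PMN liver 2, against 806 and 389. Leaving out a liver of the group not compared also moved the counts, of members and of all genes alike. In PMN livers more genes of the whole table passed without either metastasis liver. In metastasis livers fewer passed without either PMN liver. These moves say nothing particular to a member.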

How the data were processed

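RNA with poly(A) tails from 6 whole livers was sequenced. According to the methods and the submitters' processing notes, the authors aligned reads to mm10 with HISAT2 2.1.0 and counted uniquely aligned exon reads with featureCounts (Subread 2.0.6). The gene annotation and the strand setting are not given in the sources used here. The deposited values are raw counts per gene and, in a second table, TPM values that the authors computed from them. From the counts, edgeR 4.0.16 in R 4.3.3 gave TMM factors, applied the filterByExpr filter (count minimum 10), and 1 quasi-likelihood fit of the 6 livers together, with p-values adjusted by Benjamini-Hochberg over 16370 of 20140 genes. The study's methods state no count test for these livers. Log2 CPM per liver used a prior count of 2. Standard errors are the log2 fold change divided by the square root of F.

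Members were matched by symbol, and positions came from GENCODE vM21. The members and lists were chosen with earlier results of these data known. Named were the members, 13 partners whatever their values, and up to 4 called genes per list and comparison with a mean of at least 1 CPM, as well as 3 genes most like each called member. Krt20 and Lgals1 were chosen after their values were seen. Alternatives were DESeq2 1.42.0, 3 other normalizations, 2 other filters, the 2 compared groups alone, the replicate number as a block, limma 3.58.1 on log2(TPM + 1) and log2(TPM + 0.1), and each liver left out. The procedure was tested on simulated counts that had the same spread in every group, so this test does not cover the unequal scatter of the real groups. Depth was 32838321 to 43368309 counts per liver, and intervals of counts are exact Poisson intervals at 95% that cover counting error only. Motif letters were chosen for this description, and those of NF-kB and ISRE were shortened by 1 base after a search with the longer forms, so the ISRE match in Cd274 holds only for the shorter letters. Some genes of the lists are not reported here, and the counts of members and lists leave them out.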

Additional observations from a re-analysis of the deposited data

How the results depend on the processing

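The count of members called higher in PMN livers was 2, and became 1 with at least 10 counts in every liver (Vsir), 1 with log2(TPM + 1) (Vsir), 3 with only the 2 groups compared (Sirpa in addition), and 0 to 3 with a liver left out. In metastasis livers the count was 3, and became 1 with only the 2 groups compared (Vsir) and 1 with log2(TPM + 0.1) (Vsir). It became 2 with library size without TMM (Cd274 lost, adjusted p = 0.0600 by edgeR), 2 with log2(TPM + 1) (Havcr2 lost, 0.113 by limma) and 2 with at least 10 counts in every liver. Between metastasis and PMN livers the count was 0 in every fit that kept all livers. With a liver left out the count fell in some fits of metastasis against sham livers. It rose, there and between the tumor groups, only where Il10 was called. Il10 had entered the test in these fits only through its 58 counts in metastasis liver 1. No member was called lower under any setting. With at least 10 counts in every liver Havcr2 was not tested. The cause of the other changes was not tested.

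Between metastasis and PMN livers, where no tested member was called, the sign turned for Sirpa with log2(TPM + 1) (-0.0048) and log2(TPM + 0.1) (-0.0041), and with a liver left out Sirpa ranged from -0.1744 to 0.4093, Lgals9 from -0.0355 to 0.2742 and Havcr2 from -1.6296 to 0.2137. Library size without TMM shifted the median log2 fold change of all genes to -0.25 in PMN and -0.23 in metastasis livers, and called 801 and 1115 genes lower against 389 and 646. DESeq2 called 1662 genes higher and 1049 lower in PMN livers and 2003 and 1397 in metastasis livers, against 806 and 389 and 1110 and 646, and 234 and 272 between the tumor groups against 0. With only the 2 groups compared, 2548 and 2223 genes were called in PMN and 276 and 116 in metastasis livers. Limma on log2(TPM + 1) called 497 higher and 896 lower in PMN and 685 and 1553 in metastasis livers.

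With the replicate number as a block, 2 members were called in PMN livers (Havcr2 and Vsir) and 2 in metastasis livers (Cd274 and Vsir), where Havcr2 missed the limit (adjusted p = 0.0514 by edgeR), and genes called lower in PMN livers went from 389 to 259. The labels do not say that the numbers pair the animals, and the correlations of same-numbered deviations were -0.032, 0.083 and 0.042.

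Counts of called genes on the pathway lists also moved over the settings that kept every liver. Genes called higher in PMN and in metastasis livers numbered 5 to 11 and 2 to 12 for checkpoint partners (8 and 7 as reported), 5 to 11 and 4 to 8 for myeloid inhibitory receptors (7 and 7), 5 to 10 and 2 to 10 for suppressive cytokines (7 and 8), 0 to 4 and 0 to 6 for prostanoid genes (1 and 4), and 2 to 6 and 1 to 5 for inducers (4 and 4). With a liver left out, these counts ranged from 0 to 11 for the first 3 lists in both groups, from 0 to 4 and 0 to 6 for prostanoid genes and from 0 to 6 and 0 to 7 for inducers.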

Other observations

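Genes counted in a single liver, with at least 50 counts there and at most 3 in each of the others, numbered 6 in metastasis liver 1, among them Il10, and 10 in metastasis liver 2, among them Krt20. There were 0 such genes in each of the sham and PMN livers.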
